A study of Homo sapiens with 15 samples.

Results

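The genes examined here belong to glycolysis and the pentose phosphate pathway, and were chosen by symbol from a list of 32: 4 glucose carriers, HK1, HK2 and GPI, 3 phosphofructokinases, 3 PFKFB regulators, 8 enzymes of lower glycolysis, 2 lactate dehydrogenases, 2 monocarboxylate carriers, 6 enzymes of the pentose phosphate pathway and GBE1. Of the 32 symbols, 31 had a row among the 17272 genes of the expression table. The carrier SLC2A10 had no row and was not analysed here. All 31 genes with a row passed the filter on low values, a mean of at least 0.5 CPM (reads scaled to library size) over the libraries, SLC2A3 only through its level in cells without enzalutamide.

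LNCaP, an established line of androgen-sensitive prostate cancer cells, was kept for 2 days in medium with charcoal-stripped serum and then treated for 22 h. All cells received the synthetic androgen R1881 at 1 nM. In 10 libraries the labels name the vehicle DMSO beside it (R1881 + DMSO), and in 5 libraries enzalutamide, an antagonist of the androgen receptor, was present at 2 µM (R1881 + enzalutamide). No library of cells without R1881 was analysed here. The methods text of the study assigns the numbers of replicates to the treatments the other way round, and the sample labels were followed. That text calls the libraries biological replicates. The labels do not tie them to separate cultures, so the p-values measure the spread between these libraries, which may be partly technical.

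Between 15830745 and 25416052 reads per library were recovered from the deposited CPM. The 10 luminal prostate markers examined all had rows, and their summed level was 7992 to 9267 CPM with R1881 + DMSO and 3770 to 3888 CPM with enzalutamide. The androgen-induced gene FKBP5 had a median of 1516 CPM with R1881 + DMSO and 47.7 CPM with enzalutamide, and for TMPRSS2 the medians were 854 and 72.8 CPM. Of 12 markers of basal, immune, fibroblast and endothelial cells, 9 had no row, among them TP63, PTPRC, DCN and PECAM1. The other 3 (KRT14, COL1A1 and VWF) summed to 8.10 to 12.02 CPM with R1881 + DMSO and 10.3 to 15.9 CPM with enzalutamide, and their part in the results was not tested.

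Glycolysis turns glucose into pyruvate in the cytosol. Hexokinase traps glucose as glucose 6-phosphate, phosphofructokinase commits it to breakdown, and lactate dehydrogenase converts pyruvate to lactate, which leaves the cell through monocarboxylate carriers. The pentose phosphate pathway branches off at glucose 6-phosphate and yields NADPH in its oxidative arm and ribose phosphate for nucleotides. Most steps have several isoenzymes, encoded by separate genes, and prostate cancer cells use glucose under control of the androgen receptor among other regulators.

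Most of these genes were lower with enzalutamide. Of the 31 genes tested, 26 were lower and 2 were higher (limma on log2(CPM + 0.5), Benjamini-Hochberg adjusted p under 0.05 over all 17046 genes tested), and 3 did not pass the test. By the same rule 32.7% of all genes tested were lower and 29.8% were higher. The median log2 fold change (R1881 + enzalutamide minus R1881 + DMSO) was -0.28 over the 31 genes and -0.01 over all genes. For 17 of the 31 genes every enzalutamide library lay below every R1881 + DMSO library, as for 20.1% of all genes. The opposite held for 1 of the 31 genes, PFKM, and for 17.1% of all genes. A decrease of at least 1.5-fold that passed the test was seen in 6 of the 31 genes (SLC2A1, SLC2A3, HK1, HK2, PFKFB2 and LDHA) and in 9.55% of all genes. SLC2A3, which the filter kept through its level without enzalutamide alone and which therefore had to differ, is counted among the 26, the 17 and the 6. Among the 31 genes, the large decreases thus fell on transcripts for glucose uptake, glucose phosphorylation, a PFKFB regulator and lactate formation. Transcripts of the abundant enzymes of lower glycolysis changed by less than 1.5-fold. Uptake and lactate themselves were not measured in these libraries.

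**Figure D1:**
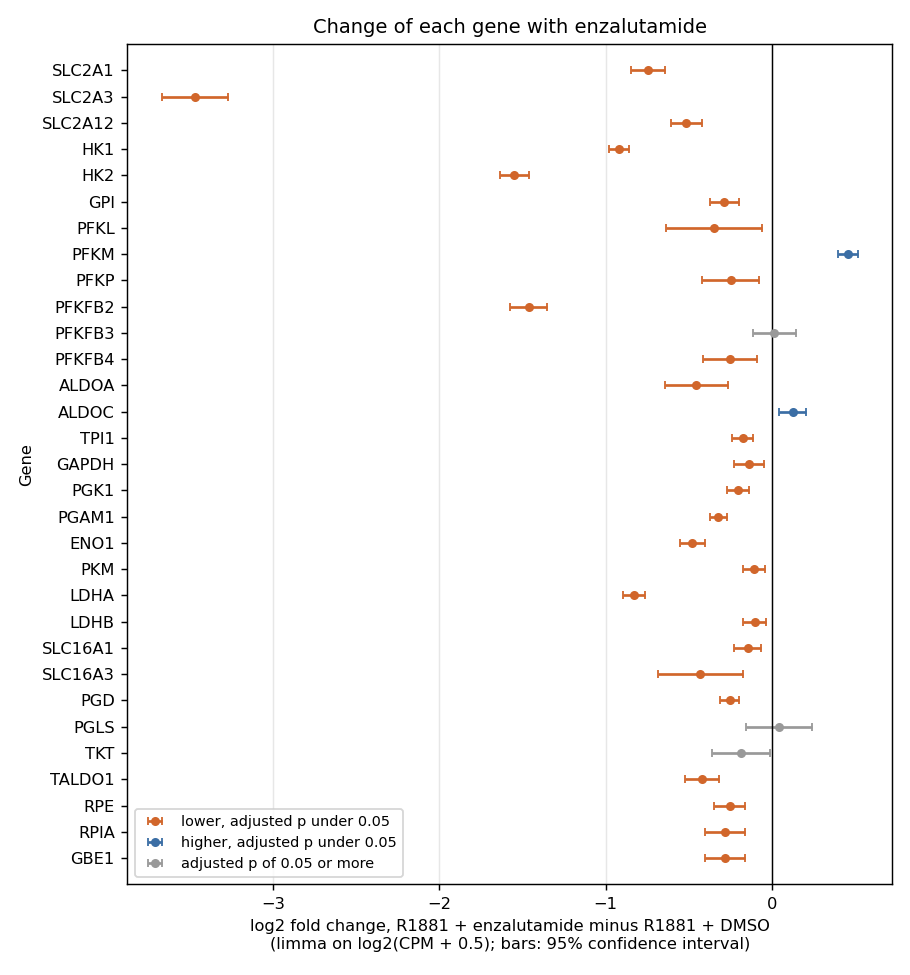
Log2 fold change of each of the 31 genes with enzalutamide (x axis, limma on log2(CPM + 0.5)), with 95% confidence intervals as bars and genes on the y axis in the order of the text. SLC2A3 lies at -3.47, HK2 at -1.55 and PFKFB2 at -1.46, most others lie between -0.5 and 0, and PFKM and ALDOC alone lie to the right of 0 with an adjusted p under 0.05.

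The size of the modest changes depended on how libraries were scaled. Deposited values added up to 1053406 to 1078567 per R1881 + DMSO library and to 985580 to 1008992 per enzalutamide library. With library totals set to 1000000, 19 of the 31 genes were lower, and with TMM factors 22. PFKM and ALDOC were higher with either. Among calls over all genes, the share that was lower was 52.3% as deposited, 46.1% with TMM factors and 39.3% with equal totals. Calls for PFKL, PFKP, PFKFB4, GAPDH, PKM, LDHB and SLC16A1 were lost with equal totals, and no gene of the 31 changed sign with these scalings. As a share of all recovered reads, the 31 genes together took 0.9904% to 1.12% in R1881 + DMSO libraries (median 1.03%). With enzalutamide they took 0.876% to 0.976% (median 0.907%), without overlap. This share amounts to the scaling with equal totals and is not independent of scaling. In RNA from whole cultures, fewer cells that express a gene and less RNA per cell cannot be told apart.

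**Figure D2:**
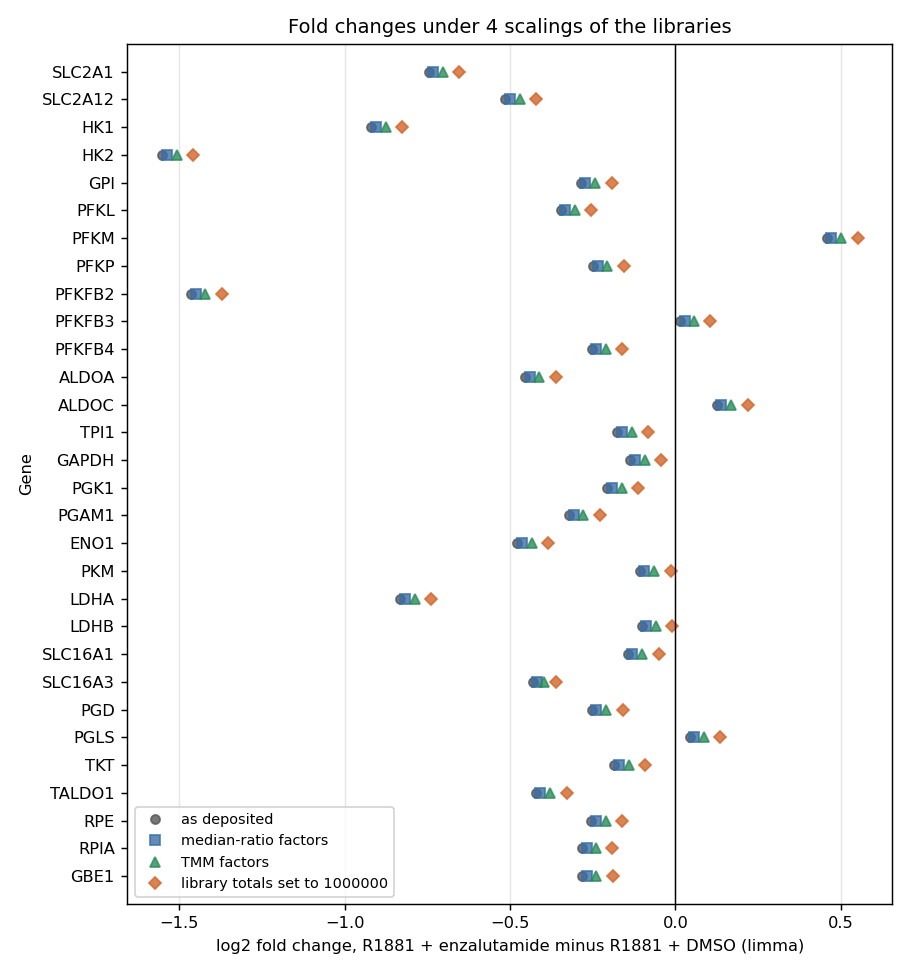
Log2 fold change with enzalutamide (x axis) of 30 genes (y axis) under 4 scalings of the libraries: as deposited, median-ratio factors, TMM factors and totals of 1000000. SLC2A3, at -3.47 as deposited, is not drawn. Each gene shifts to the right in this order of scalings, LDHB from -0.10 to -0.01 and HK2 from -1.55 to -1.46.

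Promoter sequences were examined for the genes with the lowest and highest fold changes. They are shown for HK2, the lowest with an entry in the RefSeq promoter table, and for ALDOC and PFKM, the 2 genes that were higher, so that the letters around the starts of genes that moved in opposite directions can be compared. Each spans 250 bases before to 50 bases after the RefSeq start on GRCh38.p14, written along the strand of the gene. HK2 is at chr2:74833877-74834176 (plus strand), ALDOC at chr17:28576846-28577145 (minus strand) and PFKM at chr12:48105623-48105922 (plus strand). The HK2 start is also the start of the gene in GENCODE v44, and those of ALDOC and PFKM lie inside the GENCODE gene. Capitals mark ACGTG (the core of the hypoxia response element), GGGCGG (the GC box) and AGAACA (a single arm of the androgen response element) on either strand, with CACGTG, the E-box, holding ACGTG within it.
HK2: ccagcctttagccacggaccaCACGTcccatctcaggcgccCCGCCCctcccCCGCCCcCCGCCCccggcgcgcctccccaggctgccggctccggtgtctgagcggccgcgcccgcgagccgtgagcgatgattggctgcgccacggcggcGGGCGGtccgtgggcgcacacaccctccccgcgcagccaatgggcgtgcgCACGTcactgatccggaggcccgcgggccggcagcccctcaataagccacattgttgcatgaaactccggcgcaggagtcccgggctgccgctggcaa
ALDOC: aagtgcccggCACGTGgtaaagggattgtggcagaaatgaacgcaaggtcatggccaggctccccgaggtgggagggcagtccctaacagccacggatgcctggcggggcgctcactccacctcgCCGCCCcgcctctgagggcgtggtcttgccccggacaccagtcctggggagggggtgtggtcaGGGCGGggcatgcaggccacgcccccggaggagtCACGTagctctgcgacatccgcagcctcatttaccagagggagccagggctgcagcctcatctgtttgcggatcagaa
PFKM: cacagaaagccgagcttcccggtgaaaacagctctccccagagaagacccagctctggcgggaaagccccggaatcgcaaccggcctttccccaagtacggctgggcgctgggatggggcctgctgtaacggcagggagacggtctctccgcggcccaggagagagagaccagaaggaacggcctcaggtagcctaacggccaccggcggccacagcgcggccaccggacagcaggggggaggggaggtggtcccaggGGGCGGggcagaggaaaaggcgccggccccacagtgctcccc
The HK2 window held 2 matches to ACGTG and 4 to GGGCGG, the ALDOC window 3 and 2, and the PFKM window 0 and 1. None of the 3 windows held AGAACA. Entries were found for 28 of the 31 genes, and SLC2A3, PFKFB2 and SLC16A1 had none. ACGTG was present in 9 of the 28 windows (ALDOA, ALDOC, GAPDH, GBE1, GPI, HK2, LDHA, PGD and PGK1) and in 21.4% of all 35116 promoters in the table. CACGTG was present in 3 (ALDOC, GAPDH and LDHA), against 7.26% of all promoters. GGGCGG was found in 23 of the 28 and in 45.0% of all, and AGAACA in 2 (ALDOA and GPI) and in 14.8% of all. The full androgen response element, AGAACA and TGTTCT with 3 bases between them, was in none of the 28 and in 0.00285% of all. A match describes the letters of a window and does not show binding.

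Glucose carriers were lower with enzalutamide in all 3 cases tested. SLC2A1 encodes GLUT1, the carrier found in most cells. In the 10 R1881 + DMSO libraries it lay between 57.5 and 67.6 CPM (median 62.2), and in the 5 enzalutamide libraries it was 33.6, 40.9, 37.5, 34.6 and 38.2 CPM. Its log2 fold change was -0.75 (SE 0.05, limma adjusted p = 2.46e-11), and the treatments did not overlap.

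SLC2A3, which encodes the high-affinity carrier GLUT3, showed the largest decrease of the 31 genes (chr12:7919230-8019007, minus strand, GENCODE v44 on GRCh38). It was low but present in every R1881 + DMSO library, at 4.43 to 6.90 CPM (median 5.56), or 74 to 157 reads. The enzalutamide libraries held 1, 1, 0, 2 and 3 reads, which is 0.0465, 0.0465, 0, 0.0898 and 0.118 CPM. The log2 fold change of -3.47 is set in part by the pseudocount of 0.5 CPM, and no p-value is given, since a gene kept by the filter through 1 treatment alone had to differ. From the 7 and 1160 reads of the treatments, corrected for depth, the level with R1881 + DMSO was 92.4 times that with enzalutamide (exact 95% interval 44.7 to 230.3, counting error only). SLC2A14, a near-identical neighbour of SLC2A3 on chromosome 12, had 22 to 47 reads per R1881 + DMSO library and 0 reads in all 5 enzalutamide libraries. Against a floor of 3 reads over the group this was at least 66.0-fold lower, and how reads were divided between the near-identical genes is uncertain.

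SLC2A12 encodes GLUT12, another sugar carrier. It lay between 90.2 and 106.5 CPM (median 99.2) with R1881 + DMSO and was 76.5, 64.9, 68.6, 67.4 and 67.1 CPM with enzalutamide. SLC2A12 thus had a log2 fold change of -0.51 (SE 0.05, limma adjusted p = 3.15e-09), again without overlap. TBPL1, which overlaps SLC2A12 on the opposite strand, had medians of 41.8 CPM with R1881 + DMSO and 47.8 CPM with enzalutamide (log2 fold change 0.17). Per kilobase of the canonical transcript, the median levels with R1881 + DMSO were 18.4 CPM for SLC2A1, 17.8 CPM for SLC2A12 and 1.45 CPM for SLC2A3. GLUT1 and GLUT12 transcripts were thus at like levels in cells without enzalutamide, and those of GLUT3 were a small fraction of either.

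**Figure D3:**
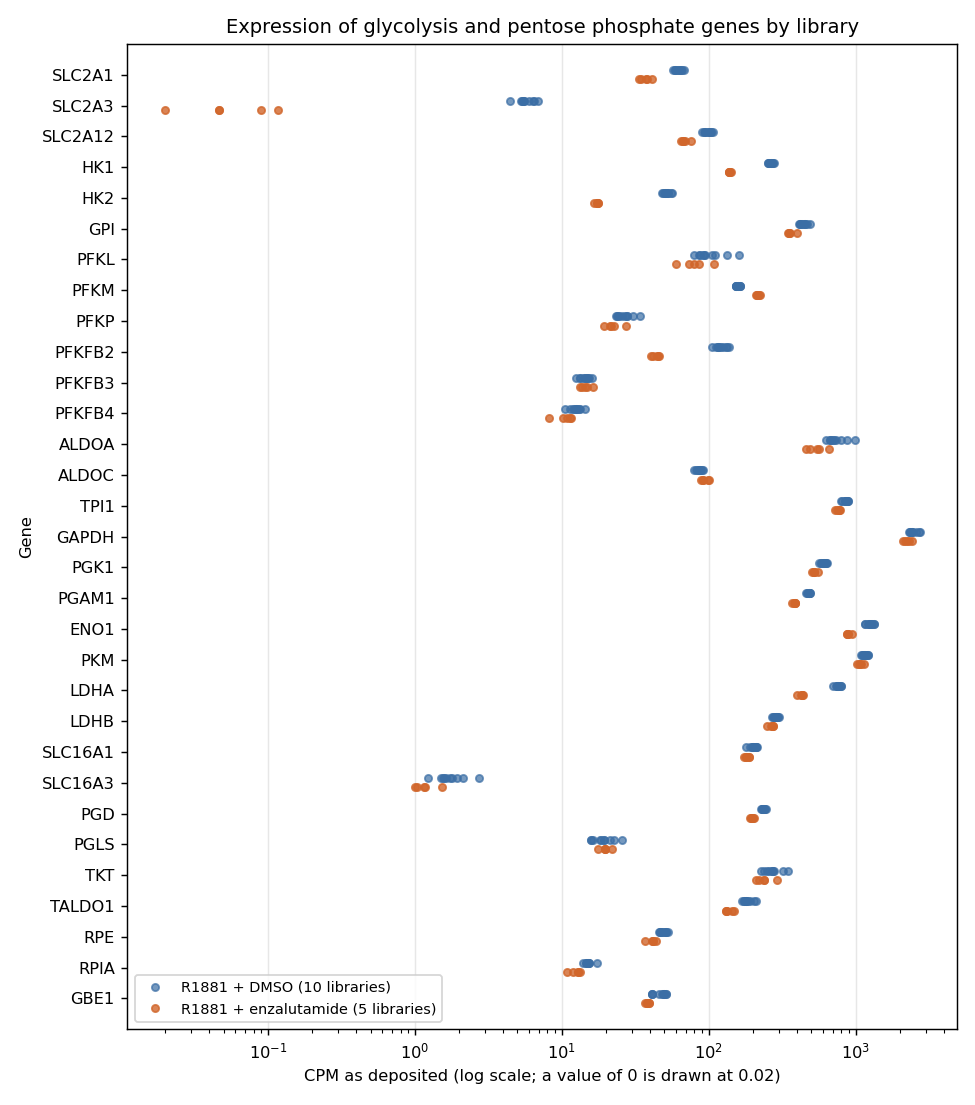
CPM as deposited (x axis, log scale) of the 31 genes (y axis) in each of the 10 R1881 + DMSO libraries (blue) and the 5 R1881 + enzalutamide libraries (orange), with a value of 0 drawn at 0.02. The points of HK1, HK2, PFKFB2 and LDHA form 2 separate clusters each, PFKM is the only gene with all orange points to the right, and those of PFKFB3, PGLS and TKT overlap.

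Both hexokinases fell. HK1, the hexokinase of most tissues, lay between 254.5 and 279.7 CPM (median 264.5) with R1881 + DMSO and at 139.9, 143.0, 137.9, 138.3 and 138.1 CPM with enzalutamide. For HK1 the log2 fold change was -0.92 (SE 0.03, limma adjusted p = 1.13e-16), a decrease of the mean by 47.2%. These 5 values lay within a narrow band far below the lowest of the other treatment.

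HK2, the inducible hexokinase of muscle and many tumours (chr2:74834127-74893359, plus strand), fell further. Its range was 47.9 to 56.3 CPM (median 52.0) with R1881 + DMSO, and with enzalutamide it was 17.5, 16.6, 17.3, 17.7 and 17.7 CPM. The log2 fold change was -1.55 (SE 0.04, limma adjusted p = 6.64e-18), and the mean was lower by 66.5%. Per kilobase, HK1 was the more abundant with either treatment, with medians of 73.4 and 38.4 CPM beside 9.23 and 3.11 CPM for HK2. GPI, the isomerase that makes fructose 6-phosphate, changed less, with a log2 fold change of -0.29 (SE 0.04, limma adjusted p = 4.60e-06) and no overlap.

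The 3 phosphofructokinase genes did not move alike. PFKM, the muscle type (chr12:48105139-48146404, plus strand), rose from a range of 152.7 to 163.9 CPM (median 157.5) to 224.1, 221.3, 211.1, 213.4 and 214.9 CPM. This was a log2 fold change of 0.46 (SE 0.03, limma adjusted p = 1.19e-11), and every enzalutamide library lay above every R1881 + DMSO library. SENP1, which overlaps PFKM on the opposite strand, had medians of 30.3 and 29.5 CPM and a log2 fold change of -0.04.

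PFKL, the liver type, was variable. With R1881 + DMSO it ranged from 79.4 to 160.7 CPM (median 94.2), and with enzalutamide it was 60.1, 108.7, 79.3, 73.5 and 86.4 CPM. Its log2 fold change of -0.35 (SE 0.14, limma adjusted p = 0.0362) came with overlapping treatments, and the adjusted p was 0.0846 with edgeR. It was between 0.0512 and 0.145 when R1881 + DMSO replicate 1, 4 or 5 or R1881 + enzalutamide replicate 1, 3 or 4 was left out. PFKP, the platelet type, lay between 23.5 and 34.2 CPM (median 26.4) and was 19.5, 27.3, 22.9, 21.7 and 21.3 CPM with enzalutamide. PFKP had a log2 fold change of -0.25 (SE 0.08, limma adjusted p = 0.0138), again with overlap, and the adjusted p was 0.0562 without R1881 + enzalutamide replicate 1. Per kilobase the order of the 3 was the same with both treatments. PFKM led (medians of 51.0 and 69.5 CPM), followed by PFKL (32.4 and 27.3 CPM) and PFKP (10.0 and 8.26 CPM).

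PFKFB enzymes make and break fructose 2,6-bisphosphate, the activator of phosphofructokinase. PFKFB2, the heart type and a known target of the androgen receptor (chr1:207034366-207081024, plus strand), lay between 105.5 and 137.4 CPM (median 119.3) with R1881 + DMSO. With enzalutamide it was 45.2, 40.8, 41.8, 45.6 and 44.7 CPM. The log2 fold change was -1.46 (SE 0.05, limma adjusted p = 1.17e-15), with no overlap. YOD1, which overlaps PFKFB2 on the opposite strand, also fell, from a median of 57.2 to 37.6 CPM (log2 fold change -0.60). The methods text names a stranded library kit. Whether strand was used in counting was not given in the sources used here, so reads of such overlapping pairs may not have been fully separated.

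For the other PFKFB genes the treatments overlapped. PFKFB4, the testis type, had a log2 fold change of -0.25 (SE 0.08, limma adjusted p = 0.00758) with overlapping treatments. PFKFB3, an isoform with high kinase activity, ranged from 12.5 to 16.0 CPM with R1881 + DMSO and from 13.3 to 16.3 CPM with enzalutamide. Its log2 fold change was 0.01 with a 95% interval of -0.12 to 0.15 (limma adjusted p = 0.850), which leaves out changes as large as those of PFKFB2.

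Lower glycolysis, from aldolase to pyruvate kinase, was represented by 8 genes, of which 7 were lower and 1 was higher. ENO1, the main enolase, had the largest decrease among them, from a median of 1245 CPM to 892, 950, 891, 873 and 879 CPM (log2 fold change -0.48, SE 0.04). ALDOA, the muscle-type aldolase, followed at -0.45 (SE 0.09), and PGAM1, a phosphoglycerate mutase, at -0.32 (SE 0.02). Smaller decreases were found for PGK1, the first ATP-forming enzyme (-0.21), for TPI1, which interconverts the triose phosphates (-0.18), and for GAPDH, which oxidises glyceraldehyde 3-phosphate (-0.14). ENO1, PGAM1, PGK1 and TPI1 showed no overlap between treatments, and ALDOA and GAPDH did. Reads of PGAM1 can be shared with its near-identical copy PGAM4, and PGAM4 lies within PGK1 on the opposite strand. PGAM4 itself was counted at a median of 75.3 CPM with R1881 + DMSO and 59.3 CPM with enzalutamide. ATP7A, which overlaps PGK1 on the same strand, had medians of 68.4 CPM with R1881 + DMSO and 86.1 CPM with enzalutamide.

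PKM, which encodes the M-type pyruvate kinases, was among the most highly expressed of the 31 genes. It ranged from 1093 to 1221 CPM (median 1153) with R1881 + DMSO and was 1083, 1137, 1059, 1024 and 1070 CPM with enzalutamide. The log2 fold change was -0.11 (SE 0.03, limma adjusted p = 0.00651), the treatments overlapped, and the call was lost with TMM factors (adjusted p = 0.113). ALDOC, the brain-type aldolase, was the only gene of lower glycolysis that was higher, with 79.8 to 92.2 CPM (median 86.6) against 98.4, 100.8, 92.3, 88.3 and 91.2 CPM. Its log2 fold change was 0.13 (SE 0.04, limma adjusted p = 0.00952), and the treatments overlapped. Per kilobase, the median with R1881 + DMSO ran from 1887 CPM for GAPDH, through 699 for ENO1, 637 for TPI1, 500.1 for PKM and 433.9 for ALDOA, to 53.9 for ALDOC.

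The 2 lactate dehydrogenase subunits differed in the size of their change. LDHA, whose subunit is prevalent in muscle and favours lactate formation (chr11:18394560-18408425, plus strand), lay between 703 and 798 CPM (median 756) with R1881 + DMSO. With enzalutamide it was 442, 401, 432, 426 and 430 CPM. LDHA thus changed by -0.83 on the log2 scale (SE 0.03, limma adjusted p = 2.69e-15), and no values overlapped.

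LDHB, whose subunit is prevalent in heart and favours lactate use, lay between 270.0 and 299.4 CPM (median 289.1) and was 274.2, 248.9, 273.5, 270.8 and 267.7 CPM with enzalutamide. For LDHB the log2 fold change was -0.10 (SE 0.03, limma adjusted p = 0.00985), the treatments overlapped, and the call was lost with TMM factors (adjusted p = 0.0781). Per kilobase, LDHB stood at 0.631 to 0.667 of LDHA in the R1881 + DMSO libraries and at 1.07 to 1.09 of LDHA in the enzalutamide libraries. This order depends on the canonical transcript lengths used (2241 bases for LDHA and 1303 bases for LDHB), and other lengths were not tried. In CPM, without division by length, LDHA exceeded LDHB in every library of both treatments.

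Both monocarboxylate carriers were lower, with overlapping treatments. SLC16A1 encodes MCT1, which carries lactate in either direction. It lay between 178.9 and 214.8 CPM (median 201.6) and was 187.8, 174.6, 179.4, 189.5 and 180.0 CPM with enzalutamide (log2 fold change -0.14, SE 0.04, limma adjusted p = 0.00324), with overlap. SLC16A3, which encodes the lactate exporter MCT4, was the gene with the lowest level of the 31 per kilobase in R1881 + DMSO libraries, with a median of 0.648 CPM. Its CPM ranged from 1.24 to 2.75 without and from 1.00 to 1.53 with enzalutamide, with overlap, and its log2 fold change was -0.43 (SE 0.12, limma adjusted p = 0.00441). CSNK1D, which overlaps it on the opposite strand, had medians of 190.5 and 176.8 CPM.

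In the pentose phosphate pathway 4 of 6 genes were lower and none was higher. PGD, the NADPH-forming 6-phosphogluconate dehydrogenase of the oxidative arm, ranged from 227.6 to 244.9 CPM (median 234.3) with R1881 + DMSO and was 204.9, 198.2, 194.7, 191.6 and 199.4 CPM with enzalutamide. The log2 fold change was -0.25 (SE 0.03, limma adjusted p = 6.25e-08), without overlap. In the non-oxidative arm, TALDO1 (transaldolase) had a log2 fold change of -0.42 (SE 0.05), RPIA (ribose 5-phosphate isomerase) of -0.28 (SE 0.06) and RPE (ribulose phosphate epimerase) of -0.25 (SE 0.04). None of these 3 overlapped between treatments, and reads of RPE may be shared with its near-identical copy RPEL1, which was also lower (-0.37). KANSL1L, which overlaps RPE on the opposite strand, had medians of 13.1 CPM with R1881 + DMSO and 9.96 CPM with enzalutamide (log2 fold change -0.32).

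The lactonase PGLS and the transketolase TKT did not pass the test. PGLS had a log2 fold change of 0.04 with a 95% interval of -0.16 to 0.24 (limma adjusted p = 0.716). TKT ranged from 228.2 to 348.7 CPM with R1881 + DMSO and from 211.8 to 292.8 CPM with enzalutamide, with a log2 fold change of -0.18 (SE 0.08, limma adjusted p = 0.0642). Without R1881 + enzalutamide replicate 2 the log2 fold change of TKT was -0.26 (limma adjusted p = 0.0101), and TKT also passed without R1881 + DMSO replicate 7 (-0.21, adjusted p = 0.0395) or replicate 10 (-0.21, adjusted p = 0.0284). GBE1, the glycogen branching enzyme, had a log2 fold change of -0.28 (SE 0.06, limma adjusted p = 0.000245), with all 5 enzalutamide libraries (36.7 to 39.3 CPM) below all others (40.9 to 51.7 CPM).

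Ratios of 2 genes within a library do not depend on how that library is scaled, apart from the pseudocount of 0.5 CPM added to each gene. The pseudocount weighs most on the ratios with SLC2A3 or SLC16A3, which were low. In all, 10 such ratios were compared between treatments. Every regrouping of the libraries entered a two-sided exact permutation test. The smallest p this design allows is 0.000333, and p-values were adjusted over the 10 ratios. Within the lactate dehydrogenases, the LDHB to LDHA ratio was 1.66 times as high with enzalutamide (log2 difference 0.73, exact permutation p = 0.000333, adjusted p = 0.000555). Its mean log2 value moved from -1.40 (SD 0.03, n = 10) to -0.67 (SD 0.02, n = 5), the tightest of the 10 ratios within treatments. The PFKM to PFKP ratio was higher by 0.71 and the ALDOC to ALDOA ratio by 0.58 on the log2 scale. Lower were the ratios of HK2 to HK1 (log2 difference -0.63) and PFKFB2 to PFKFB3 (-1.48). Each of these 5 ratios separated the treatments without overlap and reached the smallest p. The SLC2A3 to SLC2A1 log2 ratio was lower in every enzalutamide library, with a difference of -2.73, but its size followed the pseudocount (-4.47 with 0.1 CPM and -1.92 with 1 CPM), and SLC2A3 had 0 to 3 reads in these libraries.

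Smaller shifts were seen in the remaining 4 ratios. PFKFB4 to PFKFB3 was lower (log2 difference -0.27, exact permutation p = 0.0150, adjusted p = 0.0214), and SLC2A12 to SLC2A1 was higher (0.23, exact permutation p = 0.0250, adjusted p = 0.0312), both with overlap. For SLC16A3 to SLC16A1 the difference was -0.29 (exact permutation p = 0.0749, adjusted p = 0.0833). The PFKL to PFKP ratio differed by -0.10 (exact permutation p = 0.332), less than its SD among R1881 + DMSO libraries (0.18). A change of the PFKFB4, SLC2A12 and SLC16A3 ratios therefore rested on differences close to the spread between libraries, and leaving out single libraries moved them across the threshold.

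**Figure D4:**
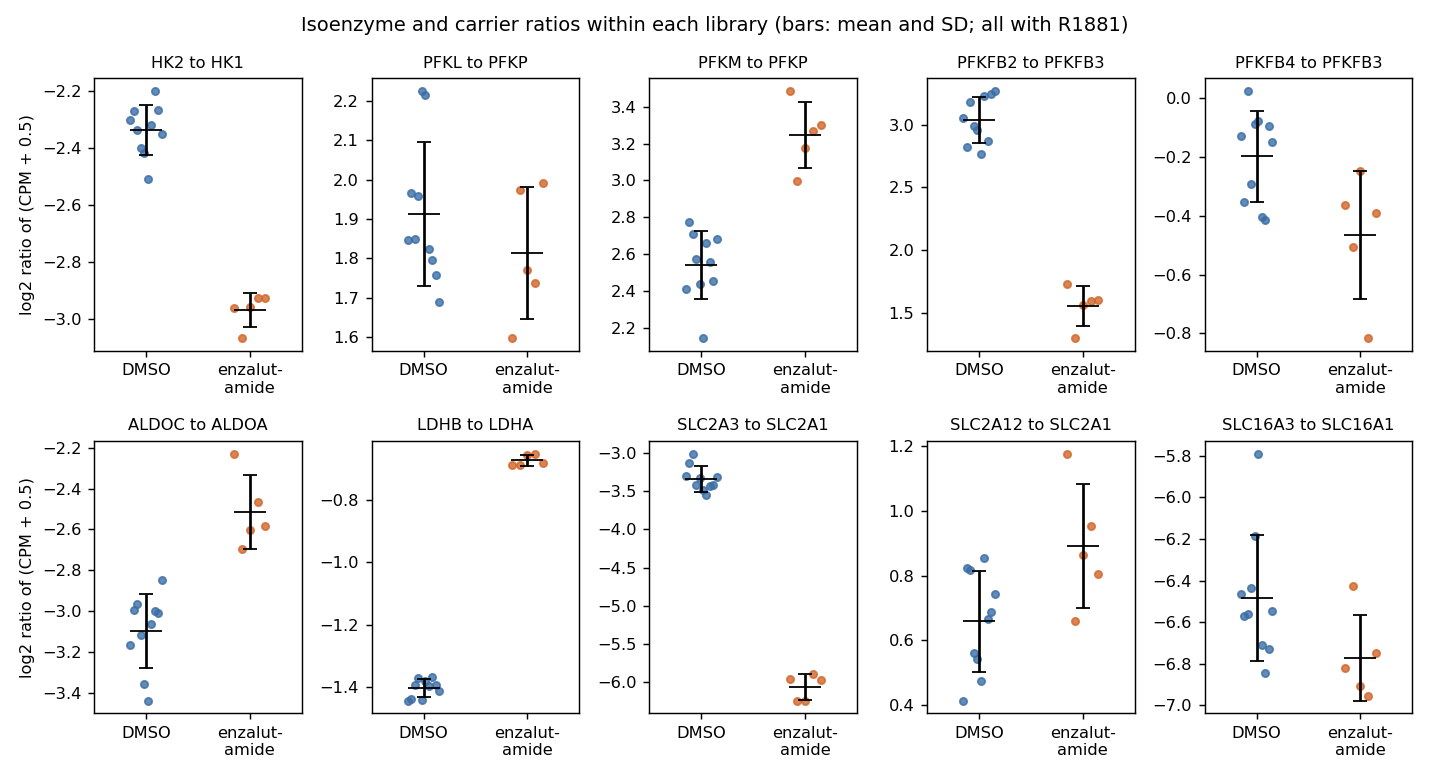
Log2 ratio of (CPM + 0.5) of 2 related genes (y axis, a separate scale for each pair) in each R1881 + DMSO library (blue, 10) and R1881 + enzalutamide library (orange, 5), with the mean and SD as bars. The ratios of HK2 to HK1, PFKM to PFKP, PFKFB2 to PFKFB3, ALDOC to ALDOA, LDHB to LDHA and SLC2A3 to SLC2A1 separate the treatments, and the other 4 overlap.

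The R1881 + DMSO libraries carry sample numbers in 2 series in the labels, 51 to 55 and 71 to 75, whose meaning the labels do not state. Between these series 2 of the 31 genes differed, PFKFB2 (log2 difference -0.19, limma adjusted p = 0.0300) and GBE1 (-0.21, limma adjusted p = 0.0417), as did 3.29% of all genes tested in these libraries. Over the 31 genes the differences ran from -0.21 to 0.26, and 6 had an unadjusted p under 0.05. Neither gene was called without R1881 + DMSO replicate 5, 7, 8, 9 or 10 (0 of the 31), and 1 was without replicate 4 or 6. These are the sizes by which the means of the 2 series differed. Single R1881 + DMSO libraries differed more in some genes, with the highest value 2.02 times the lowest for PFKL and 1.57 times for ALDOA. The changes of HK1, HK2, PFKFB2, LDHA, SLC2A1, SLC2A3 and PFKM with enzalutamide exceeded the range of the series differences. So did smaller ones, among them SLC2A12, ENO1 and ALDOA, although the libraries of ALDOA overlapped between treatments. Those of GAPDH, PKM, LDHB and SLC16A1, among others, lay within it. Against series 51 to 55 alone 23 of the 31 genes were lower with enzalutamide, and against series 71 to 75 alone 25. The enzalutamide libraries are numbered 81 to 85, so the treatment could not be compared within a series, and treatment and number series cannot be told apart.

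Several libraries were often at an end of their treatment. R1881 + enzalutamide replicate 2 was the highest of its treatment in 17 and the lowest in 9 of the 31 genes, and R1881 + DMSO replicate 6 was the highest in 12 and the lowest in 8. Without both libraries 27 genes were lower and 2 were higher. R1881 + enzalutamide replicate 1 was the highest in 8 and the lowest in 9, and without it 24 genes were lower and 2 were higher.

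Further genes of glucose metabolism, 57 in all, were examined beside the 31. Of these, 18 had no row, among them HK3, PKLR and TKTL1, and SLC5A1 was below the filter. Of the 38 tested, 16 were lower, 12 were higher and 10 did not pass, with a median log2 fold change of -0.06. SLC2A14 had 0 reads in all 5 enzalutamide libraries and was kept by the filter through its level without enzalutamide alone. It therefore had to differ, and it is counted among the 16. The shares of all genes tested were 32.7% lower and 29.8% higher, and no difference between this list and the 31 genes was tested.

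Among the further genes with the largest changes, glycogen and sugar phosphate enzymes stood on both sides. PGM2, a phosphopentomutase, fell from a median of 309.6 CPM to 128.1, 113.2, 128.2, 127.3 and 120.2 CPM (log2 fold change -1.31, SE 0.04), while its relative PGM2L1, which makes glucose 1,6-bisphosphate, rose from 1.62 CPM to 5.86, 4.42, 4.87, 5.08 and 5.37 CPM (1.38, SE 0.13). PYGB, the brain-type glycogen phosphorylase, was lower (-0.75, SE 0.07), and PYGL, the liver type, was higher (0.97, SE 0.06). None of these 4 overlapped between treatments.

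ENO2, the neuronal enolase, rose from a median of 32.5 CPM to 58.1, 58.6, 56.5, 55.4 and 56.4 CPM (log2 fold change 0.82, SE 0.04), the opposite direction to ENO1. ADPGK, which phosphorylates glucose with ADP, was lower (-0.75, SE 0.03), the carrier gene SLC2A11 was higher (0.77, SE 0.07), and SLC2A14 was lower as given above.

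**Figure D5:**
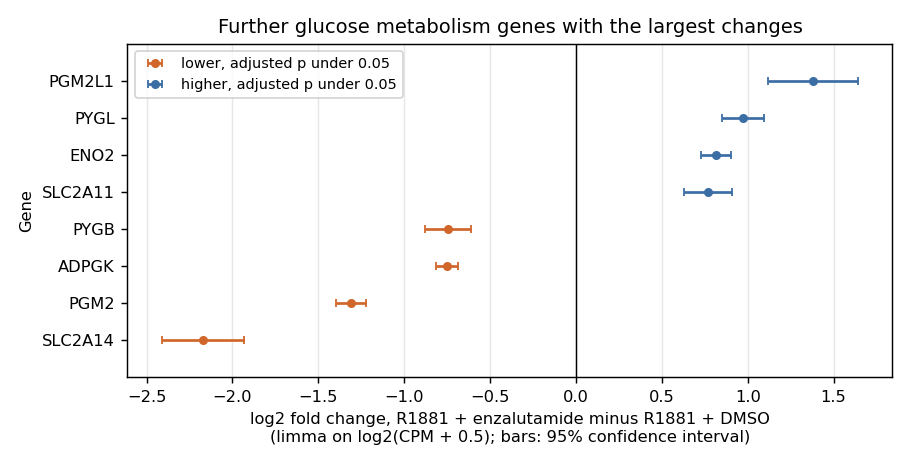
Log2 fold change with enzalutamide (x axis, limma on log2(CPM + 0.5)) of the 8 further glucose metabolism genes with the largest changes (y axis), with 95% confidence intervals as bars. PGM2L1 at 1.38, PYGL at 0.97 and ENO2 at 0.82 lie at the upper end, and PGM2 at -1.31 and SLC2A14 at -2.17 at the lower end. SLC2A14 had 0 reads with enzalutamide and passed the filter through the other treatment alone. It had to differ, and its position and interval are set in part by the pseudocount of 0.5 CPM.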

How the data were processed

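Polyadenylated RNA of LNCaP cells was made into libraries with a stranded kit and sequenced in single-end reads. Per the labels and the methods text, the authors demultiplexed with bcl2fastq 2.17, mapped to GRCh38 with STAR and counted with featureCounts of Subread. Not given in the sources used here were other versions, the annotation, the use of strand in counting and the rule for keeping genes. The deposited signal per gene is CPM on library sizes rescaled by an unstated rule. All values (100%) were whole multiples of 1 read (tolerance 0.01 reads), so reads were recovered. Library totals had a median of 23194075 reads with R1881 + DMSO and 21893693 with enzalutamide. Libraries of a treatment differed beyond sampling noise in all 55 pairs (chi-square per degree of freedom at least 1.63).

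The CPM values were tested with limma 3.58.1 in R 4.3.3 (trend, log2(CPM + 0.5), treatment only). The test was planned for CPM and kept, with edgeR 4.0.16 and DESeq2 1.42.0 on recovered reads as alternatives. Other alternatives were the pseudocount (0.1, 1), the filter (none, 5 CPM), 3 scalings, a replicate block, each R1881 + DMSO series, a 1.5-fold limit and each library left out. Removal of 2 libraries together, and the alternatives for the series comparison, were chosen after seeing the data. The genes and lists were chosen with earlier results of these data known, so no test over the list was made. Values in every library were given for genes with an adjusted p under 0.05 and a log2 fold change of at least 0.5 in size, and for rate-controlling steps (HK1, HK2, PFKL, PFKM, PFKP, PKM, LDHA, LDHB, SLC2A1, SLC16A1, PGD). Of the further genes the 8 largest changes were named, some genes covered by these rules are not reported here, and promoters of up to 2 genes at each end were examined. ALDOC, ENO1, SLC2A14, PGAM4, RPEL1, partners that overlap a gene, and the marker genes were named for the result beside which they stand. Gene positions and transcript lengths are from GENCODE v44 on GRCh38. Intervals on reads cover counting error only.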

Additional observations from a re-analysis of the deposited data

Results flagged for a closer look

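In each of 62 groups (31 genes in 2 treatments) the highest and lowest library were compared with the nearest other library, and 4 stood apart by Dixon's criterion, where chance gives about 3.1. GPI in R1881 + enzalutamide replicate 2 was at 399.7 CPM, beside 346.4 to 357.5 CPM in the other 4 libraries, and without it the log2 fold change was -0.32. ENO1 in the same library was at 950.3 CPM, beside 873.2 to 891.7 CPM, and the log2 fold change was -0.50 without it. LDHB was low in that library, at 248.9 CPM beside 267.7 to 274.2 CPM, and without it the log2 fold change was -0.08 (limma adjusted p = 0.0441). RPIA in R1881 + DMSO replicate 10 was at 17.3 CPM, beside 13.98 to 15.36 CPM in the other libraries, and the log2 fold change was -0.26 without it. All 4 genes stayed lower with an adjusted p under 0.05.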

How the results depend on the processing

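Of 866 comparisons of a gene with an alternative, 824 kept direction and side of the threshold, 30 lost the call, 6 gained it and 6 turned sign, and 20 of 31 genes were the same in each alternative run. The causes were not tested. Sign changes concerned only genes that never passed the test: PFKFB3 (-0.011 against series 71 to 75, -0.018 without R1881 + DMSO replicate 6 and R1881 + enzalutamide replicate 2, and -0.026 to 0.045 with single libraries left out, negative without R1881 + DMSO replicate 3 or R1881 + enzalutamide replicate 2) and PGLS (-0.038 with the replicate block, -0.088 against series 71 to 75). PFKL lost its call in 11 alternatives. Genes lower numbered 24 to 27 of 31 with single libraries left out, 19 with equal totals, 22 with TMM factors or edgeR, 25 with DESeq2 and 24 with a filter at 5 CPM. With a limit of 1.5-fold, 6 genes were lower and 0 higher. Of the further genes 6 were lower, among them SLC2A14, which had to differ, and 5 were higher. Against series 71 to 75 alone 1 gene, PFKM, was higher.

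The replicate numbers of the treatments did not pair the libraries (correlations of deviations from -0.07 to 0.07, own number best in 0 of 5). With a replicate block, R1881 + DMSO replicates 6 to 10 had no enzalutamide partner and did not inform the treatment estimate. In this fit 26 of the 31 genes were lower and 2 higher, and 10043 genes in all were called, beside 10660 without the block. LDHB had a limma adjusted p of 0.0807 and TKT of 0.00789.

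The SLC16A3 to SLC16A1 log2 ratio passed with a pseudocount of 0.1 (-0.40, adjusted exact permutation p = 0.0463). PFKFB4 to PFKFB3 missed the threshold against series 51 to 55 (-0.25) and 71 to 75 (-0.28), as did SLC2A12 to SLC2A1 (0.24 and 0.23). With single libraries left out they ran from -0.32 to -0.18 (PFKFB4 to PFKFB3), 0.16 to 0.29 (SLC2A12 to SLC2A1) and -0.37 to -0.21 (SLC16A3 to SLC16A1), and the number of genes differing between the R1881 + DMSO series from 0 to 2. The PFKFB4 to PFKFB3 log2 ratio lost its call without R1881 + enzalutamide replicate 4 (adjusted exact permutation p = 0.0774). SLC2A12 to SLC2A1 lost its call without R1881 + DMSO replicate 5 or R1881 + enzalutamide replicate 1, 3 or 4, and the SLC16A3 to SLC16A1 log2 ratio passed without R1881 + DMSO replicate 8 or R1881 + enzalutamide replicate 2 (adjusted exact permutation p = 0.0483 and 0.0422). Counting error limits SLC2A3, SLC2A14 and SLC16A3, which had few reads.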

Other observations

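The spread between R1881 + DMSO libraries differed widely among the 31 genes. The coefficient of variation was 23.9% for PFKL, 23.4% for SLC16A3, 16.6% for PGLS, 14.9% for ALDOA and 13.5% for TKT, and 1.78% for PGAM1, 2.15% for PGD and 2.64% for PFKM. The GC content of the canonical transcript was 63.4%, 64.7%, 65.9%, 60.5% and 58.0% for the first 5 of these genes and 52.7%, 50.7% and 50.4% for the last 3. Next in spread after TKT came PFKP (12.6%, GC content 57.8%), SLC2A3 (12.4%, GC content 45.5%) and GBE1 (9.01%, GC content 41.7%). Wide spread was thus not confined to genes of high GC content. Across the 31 genes, which share their libraries and are not independent, the deviation of a gene in a library from the mean of its treatment had a Spearman correlation with GC content that ran from -0.78 (R1881 + DMSO replicate 10) to 0.90 (R1881 + DMSO replicate 6) over the 15 libraries. It was 0.89 in R1881 + enzalutamide replicate 2, and near 0 in R1881 + DMSO replicate 4 (0.060) and R1881 + enzalutamide replicate 5 (-0.020). PFKL, PGLS and TKT, among the genes with the widest spread, had calls that changed with the libraries or settings used or were not made. SLC16A3 and ALDOA, also of wide spread, kept their call in every alternative in which they were tested. Of genes with less spread, LDHB (3.57%), PKM (3.72%) and GAPDH (6.01%) lost the call in 5, 3 and 4 alternatives. A link of spread or GC content with the calls was not tested.

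SLC5A1, the sodium-coupled glucose carrier, did not reach the filter of 0.5 CPM and was not tested. Its mean was 0.129 CPM with R1881 + DMSO and 0.532 CPM with enzalutamide, with overlapping libraries.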
